A study of Drosophila melanogaster with 8 samples.

Results

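Expression in the Drosophila melanogaster cell line RasV12 was set against that in the cell line L2, using 4 of the 8 Affymetrix DrosGenome1 arrays of a study of 3 lines. The arrays were chosen by their titles, which name 3 as RasV12 and 1 as L2, and all 13966 probe sets that are not Affymetrix controls were tested. RasV12 cells were at passage 12, and cells of both lines had reached 70% confluence before RNA was extracted, each RNA from its own T-flask. The other 4 arrays carry a further line, CL8, which entered the estimate of spread and is given as a further value where it places a difference. The labels describe L2 and CL8 only as cell lines, with no tissue of origin, and give no driver for the RasV12 transgene and no number of lines made with it. RasV12 is treated here as 1 line measured 3 times, which the labels do not establish. The p-values speak of the spread between arrays within RasV12 and within CL8, not of RasV12 alone. L2 has 1 array and no spread of its own.

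Ras is a small GTPase that passes signals of receptor tyrosine kinases, such as the EGF and FGF receptors, to the Raf, MEK and ERK kinases. The V12 substitution keeps it in its active, GTP-bound form. Fly cell lines mostly come from embryos or imaginal discs, and many carry features of one lineage, such as blood cells, muscle precursors, epithelia or glia. A difference between 2 lines therefore joins the transgene, the lineage, the time in culture and the genotype, and these cannot be told apart here. Ras85D, the gene that encodes Ras, matched no probe set in the annotation used, so the transgene itself was not checked.

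The arrays of the RasV12 line were close to each other, with Pearson correlations of 0.997 over all probe sets, while each correlated with L2 at 0.936 to 0.940. The deposited values carry a median of 14 decimals on the RasV12 arrays and 9 on the L2 and CL8 arrays, so line and processing run cannot be told apart. Array medians were 4.16 to 4.39 in RasV12 and 4.99 in L2 on the log2 scale, which puts the median difference of all genes at -0.40. After quantile normalization, called rescaled below, that median was -0.02. The 3′ minus 5′ difference of the GAPDH control probe sets, a measure of RNA quality, was 1.27 to 1.37 in RasV12 and 1.03 in L2. For actin it was 0.64 to 0.88 in RasV12 and 0.82 in L2, and for eIF-4a 1.07 to 1.24 in RasV12 and 1.65 in L2. The middle 18S ribosomal RNA control read 9.26, 10.08 and 12.12 on the RasV12 arrays and 5.88 on the L2 array. The part of these controls in the results was not tested.

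Many genes separated the lines by large amounts, in both directions. A gene counted as different when its log2 difference, RasV12 mean minus L2, was 2 or more in size (4-fold), all 3 RasV12 arrays lay on one side of L2, the higher line was above every background control probe set, and limma's adjusted p was under 0.05. By this rule 304 of 10844 genes were higher (2.80%) and 370 were lower (3.41%), 6.22% in all. These shares are the baseline for every count of listed genes given below. The median log2 difference was 3.03 among the higher genes and -2.61 among the lower ones. Differences of 4 or more were found for 85 higher and 63 lower genes, and differences of 6 or more for 25 and 22. By the same rule the rescaled values gave 417 higher and 285 lower genes, and median centring of each array gave 536 and 154, so the balance between the directions depends on the scaling. Of the 126 genes named by the rule given with the processing, 22 no longer passed after median centring, each of them lower on the deposited values. They were Nf1, Krn, Sos, cos, E(spl)malpha-BFM, Kul, LysS, imd, nau, rols, pros, Idgf6, ftz, nub, disco, mirr, Hsc70-3, Mpc1, ox, Ugt37C1, TyrRS-m and Spn31A. Lower genes named outside these 126 were not in that count. Median centring moved every difference up by the same amount, as for Nf1 (-2.14 to -1.41). Under this shift srp, PH4alphaEFB, GstE2, GstD5, Cyp310a1, Nlg3 and CG8839 also fell short of the size threshold. Every one of the 674 genes kept its sign after rescaling, and 302 of the 304 higher and 285 of the 370 lower ones passed again. At the threshold of size, CG7737 lay just inside with a log2 difference of 2.01 and CG11474 just outside with 1.99. On the other side lay CG8839 just inside, at 9.66 in RasV12 and 11.66 in L2, and mGluR just outside, at 3.08 in RasV12 and 5.07 in L2. Most genes differed little, with 8152 (75.2%) within 1 log2 unit of each other in the 2 lines.

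**Figure D1:**
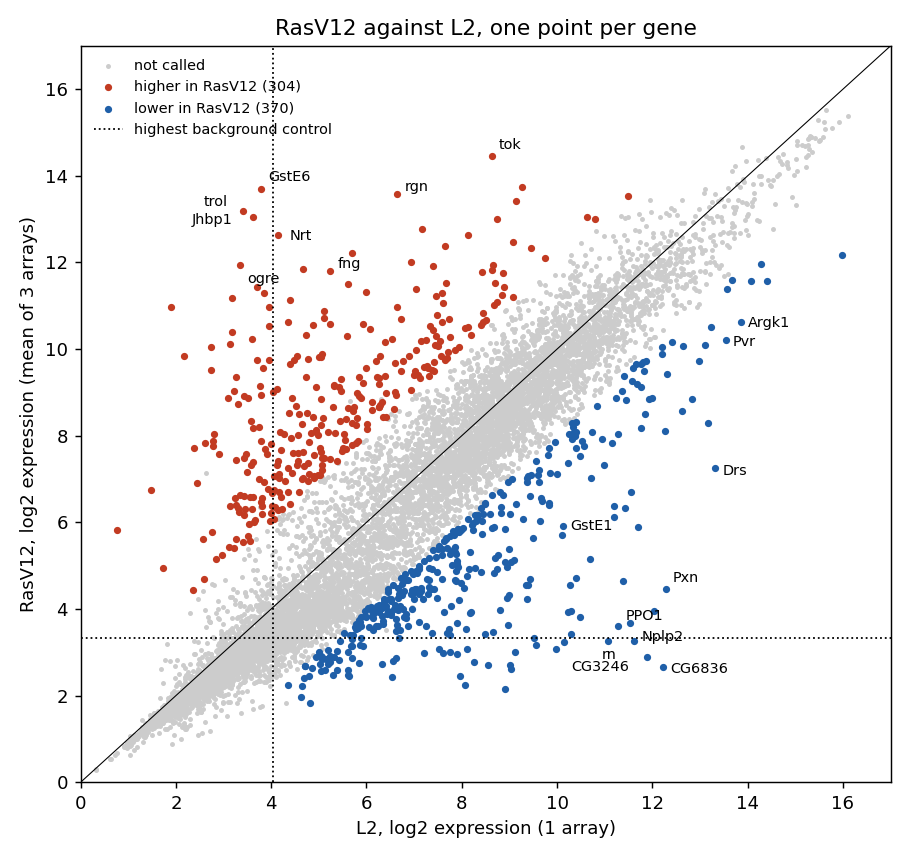
Log2 expression of 10844 genes, the mean of 3 RasV12 arrays on the vertical axis against the L2 array on the horizontal axis, with the diagonal as a solid line and the highest background control of each line dotted. The 304 genes higher in RasV12 (red) include a group at left whose L2 values lie within the controls, and the 370 lower genes (blue) reach down to RasV12 values within the controls.

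Expression of a gene in one line with a signal no brighter than background in the other made up a part of these differences. In RasV12 7344 genes were above the controls and in L2 7102, with 516 above them only in RasV12 and 274 only in L2. The highest control was 3.24 to 3.47 in RasV12 and 4.04 in L2, so these counts rest on unlike bars. Of the 304 higher genes, 88 had L2 within the controls, and of the 370 lower genes, 66 had RasV12 within the controls. For these a fold change is a lower bound, taken against the highest control, and is written as "at least".

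Among genes higher in RasV12, the highest bounds were those of GstE6, trol, Jhbp1 and ogre. GstE6, a glutathione S-transferase, read 13.74, 13.70 and 13.68 on the log2 scale in RasV12 and 3.78 in L2, at least 813-fold higher (log2 difference 9.93 ± 0.15 SE, adjusted p = 2.97e-08, limma). The basement membrane proteoglycan perlecan, encoded by trol, read 13.20, 13.32 and 13.01 in RasV12 and 3.41 in L2, at least 565-fold higher. Jhbp1, named for juvenile hormone binding, stood at 13.06, 13.04 and 13.07 in RasV12 and at 3.62 in L2, at least 518-fold higher. These 3 genes were bright in RasV12 and could not be told from background in L2. The gap junction gene ogre followed at 11.88, 12.11 and 11.86 in RasV12 and 3.35 in L2, at least 240-fold higher. Further genes of this kind were eIF4E3, a cap-binding translation initiation factor (at least 169-fold), CG6293 (at least 152-fold), the carbonic anhydrase CAH2 (at least 140-fold), the cytochrome P450 gene Cyp6a17 (at least 122-fold), CG3397 (at least 121-fold) and the glycogen synthase Glys (at least 90.6-fold). CL8 shared the low level of L2 for GstE6 (mean 3.07), trol (2.80), Jhbp1 (3.58), eIF4E3 (2.99), CAH2 (2.77) and Cyp6a17 (3.17). For CG3397 (mean 3.48) CL8 was not above its controls on most arrays, but the standard deviation over its 4 arrays was 2.16. CL8 lay between the lines for ogre (7.55), CG6293 (5.62) and Glys (7.91).

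Among genes above the controls in both lines, Nrt and Sox102F led the higher side, followed by rgn, fok and fng. Nrt, the transmembrane adhesion protein Neurotactin, read 12.66, 12.62 and 12.65 in RasV12 and 4.15 in L2, a log2 difference of 8.49 ± 0.97 (SE, adjusted p = 0.000372, limma). Its other probe set showed a difference of 1.08, so the size rests on 1 probe set. The standard deviation of Nrt was 0.025 over the RasV12 arrays and 1.35 over the CL8 arrays, which also enter the standard error. Sox102F, a SoxD transcription factor, stood at 11.75, 11.74 and 12.02 in RasV12 and 4.67 in L2 (log2 difference 7.16 ± 0.19, adjusted p = 2.98e-07). For fng, the glycosyltransferase Fringe that modifies the Notch receptor, the values were 11.73, 11.94 and 11.73 in RasV12 and 5.24 in L2 (log2 difference 6.56). The secreted astacin protease Tolkin, encoded by tok, was the brightest of this set at 14.44, 14.53 and 14.43 in RasV12 and 8.63 in L2 (log2 difference 5.83). The remaining genes of the set were rgn (6.94), fok (6.74), Ugt302C1 (6.53), sano (6.29), the cyclic nucleotide-gated channel gene CngA (5.90) and Cyp9c1 (5.77), each as a log2 difference. In none of them did a RasV12 array come near the L2 value. The standard deviation over the RasV12 arrays ran between 0.025 and 0.16. The other probe set of CngA differed by 2.08.

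**Figure D2:**
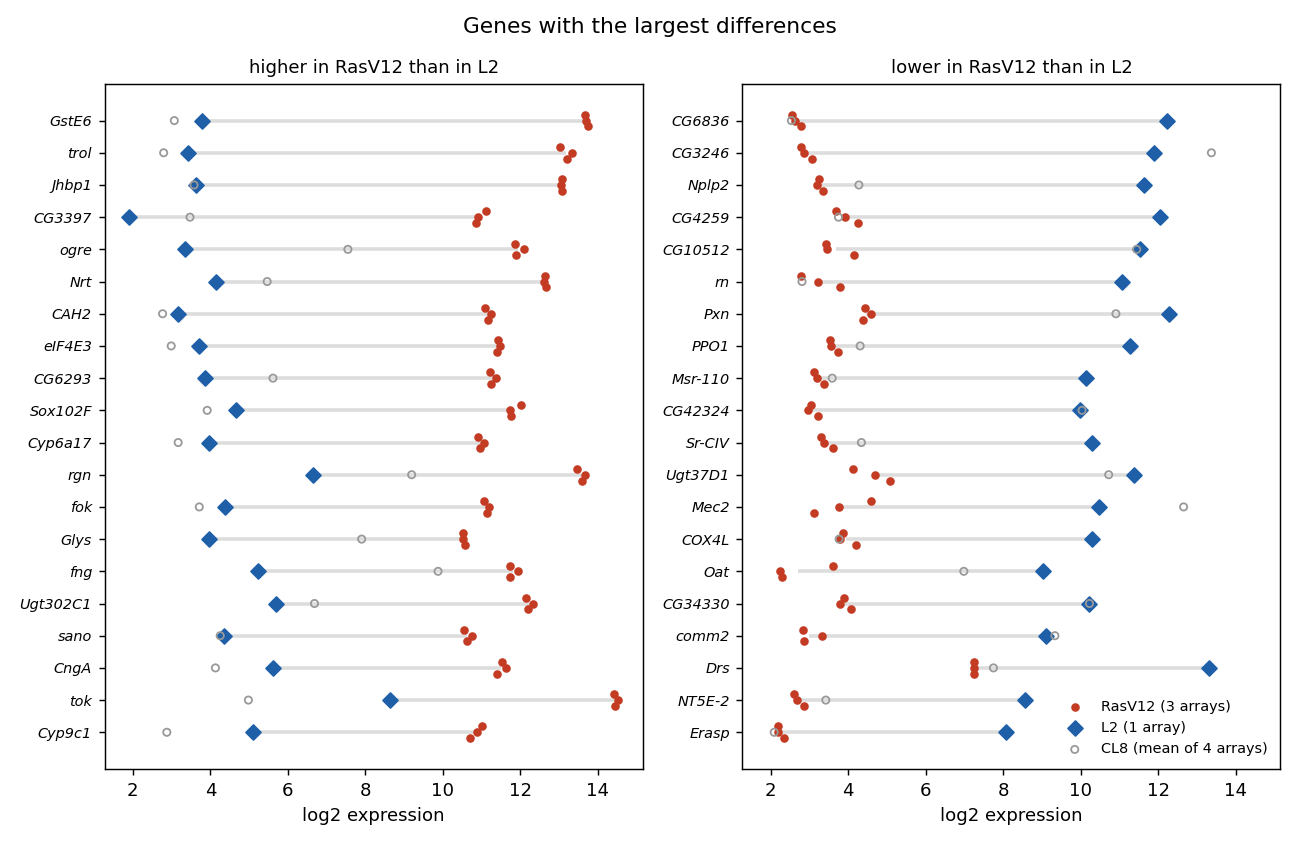
Log2 expression of the 20 leading genes in each direction, with RasV12 arrays as red points, the L2 array as a blue diamond and the mean of 4 CL8 arrays as an open circle. Left, genes higher in RasV12, led by GstE6 and trol, and right, genes lower in RasV12, led by CG6836 and CG3246, where no RasV12 point is above 7.26 and the L2 values lie between 8.08 and 13.32.

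Several genes known from blood cells and immunity were among those leading on the lower side. PPO1, a prophenoloxidase of crystal cells that starts melanization, read 3.74, 3.56 and 3.54 in RasV12 and 11.28 in L2, a log2 difference of -7.67 ± 0.13 (SE, adjusted p = 2.97e-08, limma). Pxn, the peroxidasin of hemocytes that crosslinks collagen IV, read 4.39, 4.58 and 4.42 in RasV12 and 12.28 in L2 (log2 difference -7.81). The scavenger receptor gene Sr-CIV stood at 3.60, 3.38 and 3.30 in RasV12, barely above the controls, and at 10.28 in L2. Nplp2, which encodes a neuropeptide-like precursor, was within the controls on RasV12 arrays at 3.34, 3.19 and 3.24 but read 11.63 in L2, at least 313-fold lower in RasV12. Drs, the antifungal peptide Drosomycin, differed by -6.07 with both lines well above the controls, at 7.24, 7.26 and 7.25 in RasV12 and 13.32 in L2. In CL8, Pxn was high (mean 10.91), while PPO1 (4.31), Sr-CIV (4.34), Nplp2 (4.28) and Drs (7.75) were nearer to RasV12.

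Other genes leading in this direction had mixed functions. The transcription factor gene rotund (rn) read 3.79, 3.22 and 2.77 in RasV12 and 11.08 in L2, at least 199-fold lower, and its other 3 probe sets differed by -2.28, -1.29 and -2.59. CG6836 was at least 474-fold and CG3246 at least 378-fold lower in RasV12, followed by Msr-110 (at least 112-fold), CG42324 (at least 100-fold), comm2, a relative of the Robo sorting receptor gene comm (at least 54.4-fold), the ornithine aminotransferase gene Oat (at least 47.3-fold), NT5E-2 (at least 37.2-fold) and Erasp, whose other probe set differed by -0.79. CG4259 read 4.25, 3.93 and 3.69 in RasV12 and 12.04 in L2 (log2 difference -8.09), and CG10512 differed by -7.86, Ugt37D1 by -6.74, Mec2 by -6.66, COX4L by -6.33 and CG34330 by -6.30. CL8 was as high as L2 or higher for CG3246 (13.38), Mec2 (12.66), comm2 (9.34) and CG42324 (10.04), and as low as RasV12 for CG6836 (2.54), CG4259 (3.75), rn (2.81) and COX4L (3.77).

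Genes of the basement membrane, the sheet of collagen IV, laminin, nidogen and perlecan under epithelia and muscles, differed in opposite directions. Of 20 measured, 6 were higher in RasV12 and 2 lower, against 2.80% and 3.41% of all genes. Besides trol, these were Ndg (nidogen, at least 67.3-fold), the secreted protease AdamTS-A (log2 difference 3.91), the metalloprotease inhibitor Timp (3.75), the collagen XV/XVIII gene Mp (3.52) and the laminin alpha gene wb (2.99). Ndg read 9.89, 10.12 and 10.32 in RasV12 and 3.14 in L2. The collagen IV genes and several laminin genes did not pass, and their values were lower in RasV12. Col4a1 read 13.39, 13.35 and 13.24 in RasV12 and 15.01 in L2 (log2 difference -1.68), the second collagen IV gene vkg differed by -0.69, LanA by -1.21, the collagen-binding SPARC by -1.42 and Ppn (papilin) by -1.78. Pxn and PH4alphaEFB (-2.09), a prolyl hydroxylase that acts on collagen, were lower by the full rule, the second of them not after rescaling. The median log2 difference of the list was -0.93 (-0.49 rescaled) with -0.40 (-0.02) over all genes, although its calls were mostly higher. Mp has further probe sets at 0.59 and -0.30, so its difference is not shared by all its probe sets. AdamTS-A has another probe set at 1.17 and PH4alphaEFB another at -1.29.

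Junction genes were higher in RasV12 where they differed by the rule. Septate junctions seal insect epithelia and the glial sheath of nerves, and innexins build the gap junctions of insects. Of 29 genes of polarity and junctions, 4 were higher (13.8%) and 0 lower, against 2.80% and 3.41% of all genes. The median log2 difference was 0.49 (1.00 rescaled) beside -0.40 (-0.02) over all genes. All 4 higher genes belong to septate junctions. Gliotactin (Gli) read 11.44, 11.32 and 11.22 in RasV12 and 5.99 in L2 (log2 difference 5.34 ± 0.22 SE). Lachesin (Lac) was high in both lines, at 13.74, 13.71 and 13.79 in RasV12 and 9.26 in L2 (4.49 ± 0.62 SE). Neuroglian (Nrg, 3.39) and the claudin pck (2.22) were the others. The claudin sinu pointed the other way (-1.61), kune was level (0.10), and the adherens junction cadherin shg (0.73) and crb (0.49) stayed under the threshold. Of 7 innexin genes 0 were lower and 3 were higher (42.9%). They were ogre, Inx3 at 10.47, 10.25 and 10.46 in RasV12 and 3.18 in L2 (at least 81.6-fold), and Inx2 at 9.81, 9.84 and 9.85 in RasV12 and 6.88 in L2 (log2 difference 2.95). The 7 innexin signals summed to 6058 to 6569 on the linear scale in RasV12 and 180 in L2. Of 20 integrin and adhesion genes, none passed.

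**Figure D3:**
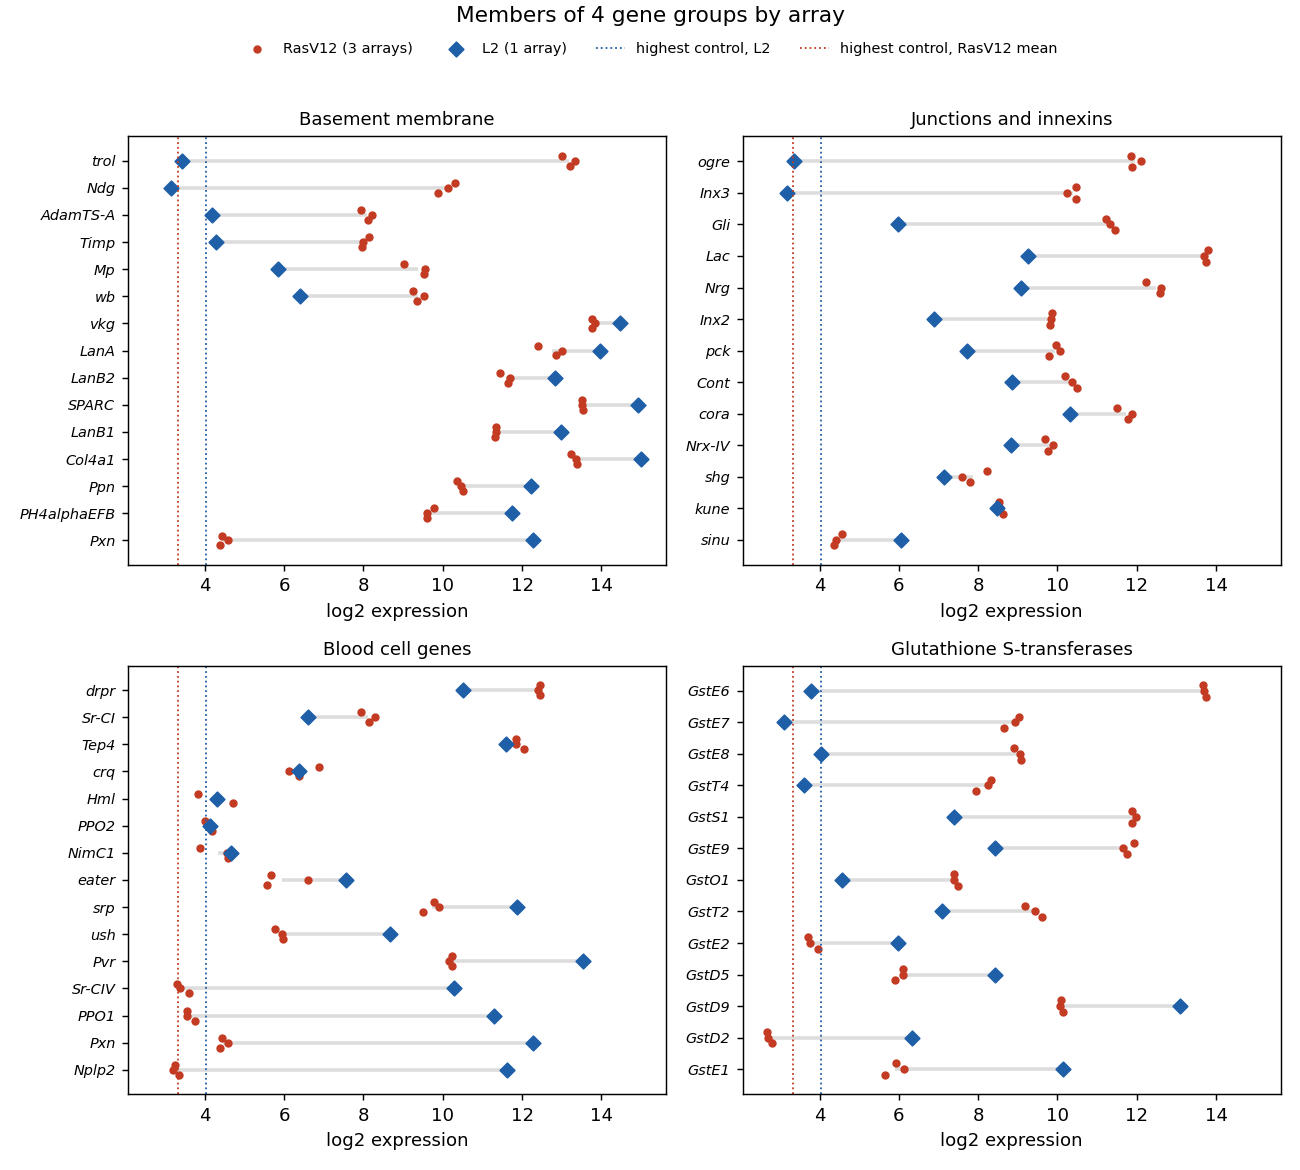
Log2 expression of members of 4 gene groups, with RasV12 arrays as red points and the L2 array as a blue diamond, and the highest background controls dotted. In the basement membrane panel trol and Ndg are high in RasV12 while Col4a1, vkg, LanA, LanB1 and LanB2 are brighter in L2, and the glutathione S-transferase panel runs between GstE6, highest above L2, and GstE1, furthest below.

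Of the hemocyte genes listed, those that passed the rule were lower in RasV12. Fly hemocytes comprise phagocytic plasmatocytes, crystal cells and lamellocytes. Of 28 genes measured, 0 were higher and 7 lower, against 2.80% and 3.41% of all genes, with a median log2 difference of -1.03 (-0.43 rescaled) beside -0.40 (-0.02) over all genes. On the rescaled values 1 was higher (drpr) and 6 were lower. Beyond PPO1, Pxn, Sr-CIV and Nplp2, these were the receptor tyrosine kinase gene Pvr (10.22, 10.15 and 10.24 in RasV12 and 13.54 in L2, log2 difference -3.34), the GATA cofactor ush (-2.78) and the GATA factor serpent (srp, 9.49, 9.91 and 9.77 in RasV12 and 11.88 in L2, -2.15). The last stayed under the size threshold after rescaling (-1.91). Other defining markers did not separate the lines. Hml was near the controls in both, at 4.71, 4.35 and 3.84 in RasV12 and 4.30 in L2, as were NimC1 (-0.31) and PPO2 (-0.03), and crq differed by 0.09. The engulfment receptor gene drpr was brighter in RasV12 without passing, at 12.45, 12.41 and 12.46 in RasV12 and 10.51 in L2 (1.93, 2.04 rescaled). NimC4, a Nimrod receptor gene that the list did not hold and that was picked out after its values were seen, was higher, at 7.54, 7.33 and 7.57 in RasV12 and 3.43 in L2 (at least 10.9-fold). In RasV12 21 of the 28 were above the controls and in L2 24, and their linear signals summed to 27123 to 28165 in RasV12 and 50265 in L2.

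Among the effector genes of immunity, those that passed were lower in RasV12. Of 15 antimicrobial peptide and lysozyme genes, 0 were higher and 3 lower (20.0%), against 2.80% and 3.41% of all genes. The lower ones were Drs, LysB (at least 5.66-fold) and LysS (at least 2.44-fold). The summed linear signal of all 15 was 249 to 261 in RasV12 and 10443 in L2, where nearly all of it came from Drs. Of 29 genes of the Toll and Imd pathways, which control these peptides, the receptor gene Tollo was higher (8.07 ± 0.81 (SD, n = 3) in RasV12 and 5.33 in L2) and the adaptor gene imd lower (5.62, 5.79 and 5.47 in RasV12 and 7.67 in L2), with imd at -1.97 and under the size threshold without RasV12 array 3. The other probe set of imd differed by -0.49. Genes listed for the fat body held 3 lower ones of 18. These were the imaginal disc growth factor genes Idgf3 (-4.83) and Idgf6 (-2.59) and the lipophorin gene apolpp (-4.24, with another probe set at -1.64). The fat body markers Lsp2 (-0.14) and Yp1 (-0.23) were within the controls in both lines.

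Genes of early mesoderm and of muscle passed on both sides. Of 32 mesoderm and myoblast genes 4 were higher (12.5%) and 2 lower (6.25%), against 2.80% and 3.41% of all genes. kirre (dumbfounded), the founder cell receptor of myoblast fusion, read 7.95, 8.02 and 7.65 in RasV12 and 2.78 in L2, at least 14.2-fold higher, and blow, a fusion gene acting in fusion-competent cells, read 11.03, 11.54 and 11.34 in RasV12 and 7.59 in L2. The mesoderm transcription factor twi stood at 9.07, 9.52 and 9.43 in RasV12 and 7.12 in L2 (log2 difference 2.22), and pnr was at least 5.03-fold higher. The MyoD homologue nau (at least 4.27-fold) and the fusion adaptor gene rols (-2.24, with further probe sets at -0.81 and -0.25) were lower. rols did not pass after rescaling or without any 1 of the RasV12 arrays (limma adjusted p = 0.0516 to 0.0864). Among 28 contractile genes, Mlc2 (2.96) and bt (3.03, with another probe set at -1.60) were higher, and the troponin C gene TpnC4 (-4.27) and Argk1 (arginine kinase, -3.23, with another probe set at -0.52) lower. The FGF receptor gene htl, which marks early mesoderm, was bright in both lines, at 11.27, 11.50 and 11.48 in RasV12 and 10.32 in L2, and in CL8 averaged 5.27.

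Of the Ras pathway components measured, those that passed the rule were lower in RasV12. The list lacks Ras85D itself, the Raf gene phl and the ERK gene rl, which matched no measured gene. Of 15 measured, 0 were higher and 3 lower (20.0%), against 2.80% and 3.41% of all genes. The median log2 difference of the list was -0.07 (0.11 rescaled), above the -0.40 (-0.02) over all genes. The 3 were Nf1, a GTPase-activating protein that switches Ras off (5.96, 5.95 and 5.59 in RasV12 and 7.98 in L2), Sos, the exchange factor that switches it on (4.86, 5.97 and 5.27 in RasV12 and 7.39 in L2), and the EGF receptor ligand gene Krn (5.60, 5.58 and 5.22 in RasV12 and 7.52 in L2). Their log2 differences were -2.14, -2.02 and -2.05, close to the threshold of size. Sos no longer reached it without RasV12 array 1 (-1.77) or 3 (-1.98), nor did Krn without array 3 (-1.93). After median centring none of the 3 reached it (Nf1 at -1.41, Krn at -1.32 and Sos at -1.29). The ligand gene grk, within the controls in L2, passed as higher on the rescaled values alone, with a log2 difference of 1.82 as deposited and 2.28 rescaled. Egfr differed by -1.08 and the ligand gene spi by 0.24 without passing.

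Of the transcriptional targets and feedback genes of Ras signalling, kek1 passed the rule. Of 12 measured, 1 was higher (8.33%) and 0 lower, against 2.80% and 3.41% of all genes. The median log2 difference was -0.26 (0.03 rescaled) beside -0.40 (-0.02) over all genes. The gene kek1 encodes an antagonist of the EGF receptor that is induced by it in the ovary, and read 10.40, 10.35 and 10.09 in RasV12 and 7.75 in L2 (log2 difference 2.53 ± 0.55 SE, adjusted p = 0.00691, limma). The ERK phosphatase gene Mkp3 stood at 10.08, 10.24 and 10.33 in RasV12 and 10.90 in L2, and the feedback inhibitor gene aos at 8.04, 8.55 and 8.65 in RasV12 and 8.54 in L2, so the L2 value of aos lay within the range of RasV12. The inhibitor gene sty differed by 1.40, also without passing, and the JNK phosphatase gene puc by -1.80. Both Mkp3 (mean 5.51) and aos (6.58) were dimmer in CL8 than in either line.

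The ETS factor gene Ets21C missed the rule because of CL8. It read 7.17, 7.30 and 6.96 in RasV12 and 2.64 in L2, at least 8.59-fold higher, but its standard deviation over the CL8 arrays was 2.95 and its adjusted p was 0.104 in the fit of all arrays (limma). In all, 13 genes had a large difference but missed limma's threshold in the fit of all arrays. A fit of the RasV12 and L2 arrays alone turned away no gene that met the other parts of the rule, so it cannot decide on these 13. Among them were the matrix metalloprotease gene Mmp2 (log2 difference 2.60), the antimicrobial peptide gene Mtk (within the controls in RasV12, at least 1.95-fold lower) and the small heat shock gene Hsp26 (-2.10).

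Receptor genes of several other signalling pathways passed the rule. The FGF receptor gene breathless (btl), known from tracheal branching, read 9.14, 9.66 and 9.26 in RasV12 and 3.26 in L2, at least 39.7-fold higher, whereas Pvr was lower. In the JAK/STAT pathway the receptor gene dome was at least 52.6-fold higher (9.70, 9.68 and 9.90 in RasV12 and 3.95 in L2), although its other probe set differed by -0.40. The inhibitor gene Socs16D was higher (2.11) and et, which encodes a truncated relative of that receptor, at least 9.26-fold lower, of 11 genes in all. The transcription factor Stat92E did not pass (-1.96). In the Hedgehog list of 13 genes the co-receptor gene boi was higher (2.78, with another probe set at 4.47) and the kinesin-like gene cos lower (-2.45, but -1.72 and under the threshold after median centring). Of 9 Wnt genes measured, the Wnt5 receptor gene drl was higher (9.36, 9.29 and 9.40 in RasV12 and 4.73 in L2). The Wnt list held 27 genes, and wg, fz, arr and arm were among those that matched no measured gene. Over all genes 2.80% were higher and 3.41% lower.

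Of the BMP and activin signalling genes, the proteases tok and tld and the transducer Mad were higher in RasV12. Of 21 genes 3 were higher (14.3%) and 0 lower, against 2.80% and 3.41% of all genes, while 18 missed the rule. The list had a median log2 difference of 0.69 (1.10 rescaled) beside -0.40 (-0.02) over all genes. The 3 were tok and its neighbour and paralogue tolloid (tld, 8.32, 8.51 and 8.70 in RasV12 and 4.59 in L2), astacin proteases of which Tolloid releases BMP ligands from their inhibitor Sog, and the transducer gene Mad (10.07, 10.02 and 10.03 in RasV12 and 7.95 in L2). The second transducer gene Smox (1.97) and the feedback gene Dad (1.83) were just under the threshold, and the ligand gene dpp differed by -1.93. In the Notch list of 17 genes, fng was higher and 3 were lower. These were the Bearded-family genes E(spl)m4-BFM (at least 4.83-fold) and E(spl)malpha-BFM (at least 3.73-fold) and the metalloprotease gene Kul (at least 2.55-fold), but E(spl)malpha-BFM and Kul did not reach the size threshold after rescaling.

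Some patterning factors of the limbs and body axis passed, more of them lower than higher in RasV12. Of 25 wing and limb genes 5 were lower, 1 was higher and 19 did not pass, where 3.41% of all genes were lower and 2.80% higher. The median log2 difference was -0.81 (-0.31 rescaled) beside -0.40 (-0.02) over all genes. Beside rn the lower genes were btd (-3.66), nub (-2.68, with further probe sets at -3.02 and -0.32), disco (at least 5.07-fold) and mirr (-2.33). The higher gene was the zinc finger gene teashirt (tsh, 7.69, 7.65 and 7.32 in RasV12 and 4.90 in L2), which specifies the trunk. Of 15 axial genes the Hox gene Sex combs reduced (Scr) was lower, at 3.57, 3.36 and 3.29 in RasV12 and 7.75 in L2, and the pair-rule gene ftz was at least 3.48-fold lower, though not past the size threshold after rescaling (-1.91). Antp (-1.40) and Dfd (-1.07) did not pass.

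The sex determination gene Sxl was higher in RasV12 by 1 of its probe sets, and its target msl-2 was lower. In flies Sex lethal, made in females, represses msl-2, whose product starts dosage compensation in males. Sxl read 9.73, 10.58 and 10.16 in RasV12 and 6.40 in L2 (log2 difference 3.76 ± 0.67 SE), but its other probe set, the brighter of the pair when RasV12 and L2 count equally, differed by 0.69 (limma adjusted p = 0.528). The values of msl-2 were 5.85, 5.51 and 4.82 in RasV12 and 8.99 in L2 (-3.60 ± 0.39 SE). In CL8 both genes were near L2, with means of 6.59 for Sxl and 8.62 for msl-2. Of the 14 genes of this list ix was also higher (2.24), and the other msl genes measured, msl-1 (-0.31) and msl-3 (-0.69), did not pass.

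Several germline and piRNA genes were higher in RasV12. The piRNA pathway silences transposons, in part through Tudor-domain proteins. Of 28 genes 5 were higher (17.9%) and 1 lower (3.57%), against 2.80% and 3.41% of all genes. The median log2 difference of the list was -0.27 (0.12 rescaled) beside -0.40 (-0.02) over all genes. The translational regulator orb read 9.55, 9.79 and 9.65 in RasV12 and 4.39 in L2 (log2 difference 5.27, with another probe set at 0.72). The Tudor-domain genes krimp (8.92, 8.61 and 9.06 in RasV12 and 4.45 in L2) and tud (3.30) and the piRNA genes del (3.19) and mael (2.39) were the others, and fs(1)Yb, which acts in somatic cells of the ovary, was at least 19.3-fold lower. The germline markers vas (-0.75) and the Argonaute genes piwi (-0.71) and aub (-1.40) did not pass, and vas was within the controls in both lines. CL8 was as bright as RasV12 or brighter for krimp (9.45), del (10.52) and mael (9.82).

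A few members of the neural and glial lists passed. Of the neuronal genes 5.88% were higher and 5.88% lower, and of the glial genes 15.4% and 7.69%. The shares of all genes were 2.80% and 3.41%. Of 17 neuronal genes Nrt was higher and the transcription factor gene pros lower (-2.21, limma adjusted p = 0.0556 without RasV12 array 2 and 0.0636 without array 3), and elav was level (7.36, 7.74 and 7.29 in RasV12 and 7.35 in L2). Of 13 genes listed for glia, Gli and Nrg, already named as junction genes, were higher and Ntan1, an amidase of protein degradation, lower (-4.83). The glial determinant repo read 3.65, 3.48 and 3.36 in RasV12 and 3.82 in L2.

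Detoxification enzymes differed member by member. These enzymes oxidize foreign compounds or conjugate them to glutathione or sugars. Of 34 glutathione S-transferase genes 8 were higher (23.5%) and 5 lower (14.7%), against 2.80% and 3.41% of all genes. The genes GstE6, GstE7 (at least 28.6-fold), GstE8 (log2 difference 4.98) and GstE9 (3.36) are neighbours on the chromosome, and they formed the only run of 3 or more neighbouring measured genes called the same way in the comparison. GstE7 read 8.66, 8.93 and 9.04 in RasV12 and 3.10 in L2, and for GstE8 the L2 value of 4.04 equalled the highest control to 2 decimals. In the same gene cluster GstE1 read 5.66, 6.12 and 5.94 in RasV12 and 10.13 in L2 (-4.22), and GstE2 differed by -2.17 (-1.81 rescaled, under the threshold). Of the delta class GstD2 was at least 7.96-fold lower, GstD9 differed by -3.01 and GstD5 by -2.39. GstT4 was at least 17.6-fold higher, and GstS1 differed by 4.51, GstO1 by 2.85 and GstT2 by 2.32. Members of this family can share sequence, so a probe set may read more than 1 of them.

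More P450 genes passed on the higher side than on the lower. Of 81 cytochrome P450 genes 11 were higher (13.6%) and 2 lower (2.47%), beside 2.80% and 3.41% of all genes, and 42 of the 81 were above the controls in a line. Cyp6a17 and Cyp6a13 (10.35, 10.09 and 10.27 in RasV12 and 3.59 in L2, at least 73.4-fold) led, followed by Cyp9c1, Cyp6a20 (5.60) and Cyp28d1 (3.70). Cyp18a1, an ecdysone-inactivating enzyme, was at least 5.77-fold higher. The 2 lower genes were Cyp4p3 (3.64, 3.41 and 3.34 in RasV12 and 8.66 in L2) and Cyp310a1 (-2.43). Of 33 UDP-glycosyltransferase genes, Ugt302C1 and Ugt35A1 (at least 7.39-fold) were higher and Ugt37D1 and Ugt37C1 (at least 3.30-fold, -1.51 rescaled and under the size threshold) lower. Genes of the ecdysone response, 27 in all, held 3 higher (Cyp18a1, br at 3.03, with further probe sets at 0.89 and -0.07, and the nuclear receptor gene Hr39 at 2.43) and 1 lower (Cth, cystathionine gamma-lyase, -4.89).

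Genes of growth and division seldom passed the rule, and those of mitochondria leaned to lower values. None of 36 cell cycle genes, 15 cell death genes, 37 cytoplasmic ribosomal protein genes or 39 proteasome genes passed. With limma's threshold alone, which takes differences of any size, 13 of the cell cycle genes were lower and 4 higher, beside 44.6% and 10% of all genes. Of 35 DNA replication genes Psf2 was at least 2.89-fold higher (a log2 difference of 1.95 and under the threshold without RasV12 array 2) and Orc2 lower (3.57, 3.47 and 3.47 in RasV12 and 6.63 in L2). Among 64 mitochondrial ribosomal protein genes 1 was lower by the rule, mRpS9 (5.07, 5.43 and 4.92 in RasV12 and 9.09 in L2), but the median log2 difference was -0.76 (-0.60 rescaled). In this list 47 passed limma's threshold alone as lower and 2 as higher. After rescaling 37 were lower and 3 higher, where 2888 of all 10844 genes were lower and 2414 higher. The median of 70 respiratory chain and ATP synthase genes was -0.68 (-0.39 rescaled), with COX4L and ox (-2.34, -1.86 rescaled) lower by the rule. The glycolytic enzyme phosphofructokinase (Pfk) was higher (11.54, 11.41 and 11.39 in RasV12 and 8.88 in L2) and the pyruvate carrier gene Mpc1 lower (-2.73). Both are among 15 genes of glycolysis that also include Argk1. Of these 15, 6.67% were higher and 13.3% lower, against 2.80% and 3.41% of all genes. Of 14 heat shock and chaperone genes, 2 were lower, Hsp68 (6.44, 5.95 and 4.71 in RasV12 and 10.11 in L2) and Hsc70-3 (-2.34), the second of which did not pass after rescaling or without RasV12 array 1 (limma adjusted p = 0.0509). The other probe set of Hsc70-3 differed by -0.54. The ribosomal protein gene RpL32, a common reference, stood at 14.86, 14.86 and 14.89 in RasV12 and 15.29 in L2. Its log2 difference of -0.42 was 0.11 after rescaling.

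The smaller families gave 1 or 2 genes each, or none. Measured were 29 proton pump, 21 Rab, 31 tetraspanin, 29 tRNA synthetase and 25 serpin genes. Higher in RasV12 were the proton pump gene VhaM9.7-c (2.58), the small GTPase gene Rab39 (2.83) and the tetraspanin genes Tsp66E (at least 4.59-fold) and Tsp5D, whose RasV12 arrays spread over 3.30, 4.89 and 6.62 above an L2 value of 1.72 and which did not pass after rescaling or without RasV12 array 2 or 3. Lower were TyrRS-m, a mitochondrial tRNA synthetase (-2.62), and the serpin gene Spn31A (at least 3.04-fold, but -1.39 on the rescaled log2 scale and -1.95 without RasV12 array 3, both under the size threshold). Of 80 odorant and gustatory receptor genes and 59 ionotropic and nicotinic receptor genes, none passed. However, 17 of the 80 and 23 of the 59 were above the controls in a line, and the others could not pass.

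**Figure D4:**
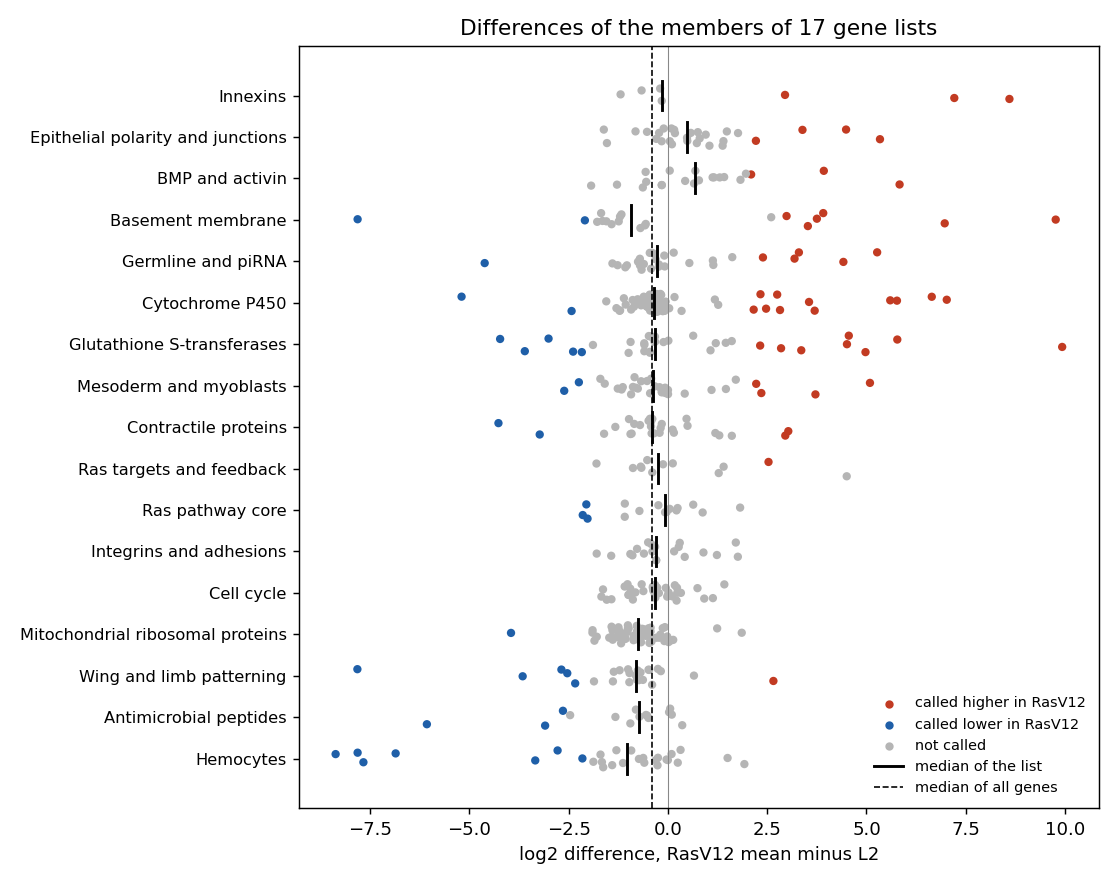
Log2 differences, RasV12 mean minus L2, of the members of selected gene lists, with genes higher by the rule in red, lower in blue and others in grey. The short line is the median of each list and the dashed line the median of all genes at -0.40, and the junction and BMP lists lie right of it while hemocyte and wing genes lie left.

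CL8 was more often near L2 than near RasV12 for the genes that differed. Of the 304 higher genes the CL8 mean was nearer L2 for 188 and nearer RasV12 for 116, and of the 370 lower genes it was nearer L2 for 219 and nearer RasV12 for 151. The CL8 mean lay between the lines for 137 higher and 218 lower genes. For 55 higher and 53 lower genes it lay beyond RasV12, on the far side from L2. Of the 88 higher genes with L2 within the controls, 38 were within the controls in CL8 too, and of the 66 lower genes with RasV12 within the controls, 22 were. CL8 shares its number of decimals with L2 and contributed to the limma fit, so these counts are a description.

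Genes with more than 1 probe set show how far the differences depend on the probes. Of the higher genes 67 had further probe sets, and all of these differed by 2 or more in the same direction for 14 genes, while for 36 genes at least 1 pointed the other way. Of the lower genes 63 had further ones, with 7 and 5 in these classes. For Set8, a histone methyltransferase gene, and SKIP, probe sets passed the rule in both directions, and these 2 genes were picked out after their values were seen. Over probe sets instead of genes, 375 were higher (2.69%) and 492 lower (3.52%), 6.21% in all, of which 31 and 68 have no gene in the annotation used.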

How the data were processed

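Total RNA (RNeasy columns) was hybridised to Affymetrix DrosGenome1 arrays. Per the series' design text, the authors computed expression values with GCRMA, which corrects background by probe sequence, normalizes across arrays and summarises probe sets. The deposited values are on a log2 scale, as GCRMA gives and their range bears out. The sources used here do not give whether all arrays went through 1 run. No probe data were used here.

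The 44 Affymetrix control probe sets were left out. Names came from the platform annotation, updated to RefSeq symbols (assembly Release 6 plus ISO1 MT) for 12394 of 12443 probe sets with 1 gene. Another 327 had several genes and 1196 none. For each gene the brightest probe set, by the mean over the 8 arrays, stood for it. Limma 3.58.1 in R 4.3.3 was fitted to all 8 arrays with 1 mean per line, followed by eBayes and Benjamini-Hochberg adjustment over 13966 probe sets, because the design text names limma. L2 has 1 array and is assumed to vary like RasV12 and CL8, and the number of arrays limits the precision (median standard error 0.17). Background was the highest of 23 control probe sets, 3.24 to 3.47 in RasV12 and 4.04 in L2. RasV12 and CL8 counted as above it when most of their arrays were.

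Named genes were, in each direction, the 10 with the largest difference among genes above background in both lines, the 10 with the highest bound among the others (at most 3 CG numbers in each set), called members of 44 gene lists (all up to 6, otherwise the 4 with the largest differences) and RpL32, 126 genes in all. Act5C and alphaTub84B matched no measured gene. Members named beyond this rule, with or without passing, were chosen after their values were seen. The comparison, its rule and the lists were chosen with earlier results of these data known. After their members were seen, the name patterns of the cytochrome P450, receptor and Rab lists were narrowed to leave out genes of other families, none of which had passed. The scripts were tested on simulated data. The 16 alternatives are given in the closing section.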

Additional observations from a re-analysis of the deposited data

How the results depend on the processing

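The 304 higher and 370 lower genes depend on scaling and on the size threshold. Median centring gave 536 higher and 154 lower genes (77.7% of the calls higher), quantile normalization 417 and 285 (59.4% higher), and the deposited values 45.1% higher. Of the 674 genes, 587 also passed after quantile normalization and 458 after median centring. A log2 threshold of 1 gave 673 higher and 1817 lower genes, and a threshold of 3 gave 158 and 123. Leaving out 1 RasV12 array at a time gave 289 to 305 higher and 348 to 398 lower genes. The other 9 alternatives, among them fits without CL8 arrays, no limma threshold, other filters on dim probe sets and other choices of probe set, gave 271 to 308 higher and 315 to 379 lower. RpL32 changed sign, with 0.11 after quantile normalization and 0.32 after median centring. Of the 126 named genes, 9 no longer passed after quantile normalization, 22 after median centring and 42 at a threshold of 3. No paired analysis was possible because L2 has 1 array, whose title carries no replicate number. The L2 array cannot be left out, so a fault of that array would enter every difference. Probe sets within the controls allow bounds only, and 3226 genes were within them in both lines.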

Other observations

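Further genes that passed the rule, all chosen after their values were seen, are given here as single values, since no list of their kind was counted. The Pax6 genes, which start eye development in flies, were both higher in RasV12. toy read 9.75 ± 0.23 (SD, n = 3) in RasV12 and 4.49 in L2, and ey read 6.06, 6.88 and 7.29 in RasV12 and 1.48 in L2, at least 6.53-fold higher. Some genes of axon guidance and cell adhesion were higher. Lower were comm2, given above, and Nlg3 (log2 difference -2.33, with further probe sets at -1.21 and -0.29). The netrin receptor gene fra stood at 12.66, 12.92 and 12.74 in RasV12 and 7.16 in L2, its ligand gene NetB at 8.73, 8.78 and 9.05 in RasV12 and 5.05 in L2, and the cadherin gene CadN at 10.20, 10.64 and 10.16 in RasV12 and 4.72 in L2. The semaphorin gene Sema5c differed by 4.71 on the log2 scale and the fasciclin gene Fas1 by 4.65. CL8 was near L2 for toy (mean 4.36), ey (1.29), CadN (3.97) and NetB (4.32), and near RasV12 for Fas1 (11.40).

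Glycogen synthesis gave a second pair beside Glys. The glycogen branching enzyme gene AGBE read 9.20, 9.08 and 9.21 in RasV12 and 5.33 in L2. Gbs-70E, which encodes a glycogen-binding subunit of a protein phosphatase, went the other way at 6.11, 6.94 and 5.19 in RasV12 and 9.29 in L2. Of the cuticle genes, which were not counted, TwdlE and TwdlM were lower, with TwdlE at 6.36, 6.11 and 6.54 in RasV12 and 11.42 in L2 and TwdlM at 4.01, 4.08 and 3.62 in RasV12 and 8.16 in L2. Sox15 stood at 6.66, 6.44 and 5.27 in RasV12 and 11.20 in L2, although its other probe sets differed by -0.24 and -0.99. The oxidase gene Duox was at least 25.9-fold higher.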
